A study of Mus musculus with 9 samples.

Results

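The miRNA hairpins mir-101a, mir-101b, mir-140 and mir-1943 were chosen for the large share of their reads in airway extracellular vesicles (EVs) that the deposited table lists at another 5′ end than the reference end of the arm. For mir-101b this share was not the larger one in most pools. Such 5′ isomiRs are listed in the deposited table as entries of their own, with a suffix for the shift of the 5′ end. All entries of the 4 hairpins were taken, which gave 24 of the 1308 entries in the table, 6 of its 465 arms and 4 of its 299 hairpins. Of the 24 entries, 18 were shifted ends and 6 were reference ends. The hairpins were selected on the share of RPMMM at shifted ends in these pools, so the size of that share is given as a description with no test.

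Small RNA was sequenced from EVs of bronchoalveolar lavage fluid (BALF) of female C57BL/6J mice aged 8 to 10 weeks. The mice breathed filtered air (FA), 1 ppm ozone (O3) or 2 ppm O3 for 3 h, and BALF was collected 21 h later. Each exposure had 3 pools of BALF, of 4 mice per pool in FA and of 3 mice per pool in both O3 groups, so pool size and exposure to O3 cannot be told apart. Values are RPMMM, reads scaled to the same total of miRNA reads in each pool, and are therefore shares of a fixed total. P-values measure the spread between pools, and in bulk EV RNA fewer EVs from a cell type cannot be told apart from less of a miRNA per EV. The paper lists a single exposure run for each O3 concentration. If the pools came from these runs, run and concentration cannot be told apart. The spread between O3 pools would then hold no spread between runs.

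A miRNA is cut from its hairpin in steps. Drosha makes the cut that sets the 5′ end of the 5p arm, and Dicer makes the cut that sets the 5′ end of the 3p arm. Target recognition rests mainly on the seed, bases 2 to 8 counted from the 5′ end, so that a start moved by 1 base gives the same arm another seed. miR-101 is known as a repressor of Ezh2, a histone methyltransferase, and miR-140 is best known from cartilage.

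The 5′ ends that carried the reads are shown with the seed in capitals. Sequences are those of RefSeq in its table for GRCm38.p6, with bases added or removed at the 5′ end. The 3′ ends are those of RefSeq, since the table gives the shift of the 5′ end alone.
miR-101a-3p: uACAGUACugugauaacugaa
miR-101a-3p-1: gUACAGUAcugugauaacugaa
miR-101b-3p: uACAGUACugugauagcu
miR-101b-3p-1: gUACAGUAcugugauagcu
miR-140-3p: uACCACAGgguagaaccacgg
miR-140-3p+1: aCCACAGGguagaaccacgg
miR-140-3p+2: cCACAGGGuagaaccacgg
miR-1943-5p: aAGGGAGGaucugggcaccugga
miR-1943-5p+1: aGGGAGGAucugggcaccugga
miR-1943-3p: cAGGUGCCagcuccucccuuc

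The main shifted end lay 1 base upstream of the reference in both miR-101 arms and 1 base downstream in miR-140-3p and miR-1943-5p. The first base changed from U to G in miR-101a-3p-1 and from U to A in miR-140-3p+1, and remained A in miR-1943-5p+1. Among the 1738 mature miRNAs of the RefSeq table, none had the seed CCACAGG of miR-140-3p+1. The seed of the reference miR-140-3p was shared with miR-497b. The reference seed of miR-1943-5p was that of miR-149-3p, which is also in the deposited table, and the seed of miR-1943-5p+1 was that of miR-6929-5p.

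The start of miR-101b-3p needs care. RefSeq starts it at the G, 1 base before the start of miR-101a-3p, and the start used by the authors is not given in the sources used here. In 4 of the 9 pools the reference entries of both hairpins came to fractions of an estimated read (tolerance 0.05 reads). In all 4 of these their sum was whole, and in 3 of them both -1 entries were whole. In FA pool 1 the -1 entries also came to fractions (595.5 and 319.5 reads), so that pool cannot tell which ends shared reads. In pool 3 at 2 ppm O3 the -1 entries came to 140.5 and 32.5 reads, with both reference entries whole. Both reference entries therefore appear to have divided reads that fit either hairpin, and the reference ends are taken here to begin at the same U. With this reading, the entry miR-101b-3p-1 is itself the start that RefSeq annotates for miR-101b-3p. If the reference entry of miR-101b-3p were instead the RefSeq start, its seed would be UACAGUA. Values of miR-101a-3p and miR-101b-3p share reads, in some pools apparently also at the -1 ends, and are not independent of each other.

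The hairpins are shown whole, because the position of each start in the hairpin is what the shift changes. Capitals mark the RefSeq mature miRNAs of arms that the deposited table lists. Arms not listed there are left in lower case, as is miR-140-5p, for which no RefSeq mature sequence was found.
mir-101a: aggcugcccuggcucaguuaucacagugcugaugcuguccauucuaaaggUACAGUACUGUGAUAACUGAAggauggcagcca
mir-101b: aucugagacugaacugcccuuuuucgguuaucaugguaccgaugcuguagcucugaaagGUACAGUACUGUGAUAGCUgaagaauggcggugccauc
mir-140: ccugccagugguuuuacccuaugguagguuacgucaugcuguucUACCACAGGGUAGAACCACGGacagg
mir-1943: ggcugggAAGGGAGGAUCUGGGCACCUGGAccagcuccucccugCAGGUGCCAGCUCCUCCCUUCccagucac

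In mm9, the build used by the authors, mir-101a lies on chr4:101019550-101019632 on the minus strand and overlaps an exon of the noncoding transcript E130102H24Rik. mir-101b lies on chr19:29209769-29209865 (plus strand) within an intron of Rcl1. mir-140 lies on chr8:110075144-110075213 (plus strand) within an intron of Wwp2, and mir-1943 on chr15:79205658-79205730 (minus strand) within an intron of Tmem184b. Each hairpin has the strand of the gene that holds it, and its mm9 sequence was identical to that of RefSeq.

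The pools were unequal in depth. In each pool the lowest value above 0 was assumed to be about 10 reads. The steps between low values then gave 535533 to 773269 miRNA reads in FA and 555106 to 860963 after 1 ppm O3. After 2 ppm O3 they gave 281538 to 300916 reads. That lowest value was 11.8 to 18.9 RPMMM in FA and after 1 ppm O3 and 34.3 to 37.3 RPMMM after 2 ppm O3. All reads given here rest on this assumed floor. miR-2137 with its isomiRs and 8 hairpins that had no match in the RefSeq gene table held at most 0.949% of the total in FA, 5.52 to 11.0% after 1 ppm O3 and 41.6 to 47.2% after 2 ppm O3. Every level after 2 ppm O3 is a share of a total that these entries filled in large part. Shares of 5′ ends within an arm do not depend on that total.

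Together the 24 entries held 1.00% of miRNA reads in FA (10039 ± 336 RPMMM, SD, n = 3 pools), 1.08% after 1 ppm O3 (10806 ± 421) and 0.677% after 2 ppm O3 (6769 ± 884). miR-140-3p was the most abundant of their arms, at rank 37 of 465 by mean level. miR-101a-3p was at rank 86, miR-1943-5p at 94, miR-101b-3p at 115, miR-1943-3p at 189 and miR-140-5p at 282. Of the 24 entries, 10 had a mean above 50 RPMMM and entered the tests. The other 14 entries were shifted ends and miR-140-5p, none of which passed 91.5 RPMMM in any pool, and they were listed at 0 in 18 of 42 values in FA, 22 of 42 after 1 ppm O3 and 39 of 42 after 2 ppm O3.

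In mir-140, the reference end of the 3p arm and the end 1 base downstream were both abundant. miR-140-3p was at 2974, 2524 and 2207 RPMMM in the FA pools, at 3929, 3255 and 3619 RPMMM after 1 ppm O3 and at 1821, 1631 and 1854 RPMMM after 2 ppm O3. The 3 exposures did not overlap for this end, which was highest after 1 ppm O3 and lowest after 2 ppm O3. miR-140-3p+1 was at 4058, 3440 and 3931 RPMMM in FA, at 3977, 3909 and 3141 RPMMM after 1 ppm O3 and at 2708, 2557 and 3638 RPMMM after 2 ppm O3. Its 1 ppm O3 pools lay within or below the range of FA, and pool 3 at 2 ppm O3 was above the lowest pool of both other groups.

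The end 2 bases downstream, miR-140-3p+2, was lower, at 105 to 277 RPMMM in FA, 153 to 247 RPMMM after 1 ppm O3 and 99.7 to 260 RPMMM after 2 ppm O3. The opposite arm, miR-140-5p, was listed at 0 in 4 of the 9 pools and reached 91.5 RPMMM in pool 1 after 1 ppm O3. The 3 ends of miR-140-3p tested were thus of 1 arm of the hairpin, and the 5p arm was too low to be tested.

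In mir-1943, the end 1 base downstream was the higher one in all 9 pools. miR-1943-5p+1 was at 600, 603 and 713 RPMMM in FA, at 629, 924 and 627 RPMMM after 1 ppm O3 and at 621, 542 and 536 RPMMM after 2 ppm O3. The reference miR-1943-5p was at 182, 180 and 289 RPMMM in FA, at 213, 324 and 303 RPMMM after 1 ppm O3 and at 292, 211 and 214 RPMMM after 2 ppm O3. The exposures overlapped at both ends, except that 1 ppm O3 lay above 2 ppm O3 for miR-1943-5p+1. The opposite arm, miR-1943-3p, was at 124, 200 and 89.6 RPMMM in FA, at 96.5, 196 and 158 RPMMM after 1 ppm O3 and at 106, 0 and 46.2 RPMMM after 2 ppm O3.

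In mir-101a, the end 1 base upstream was above the reference in 8 of 9 pools. miR-101a-3p was at 572, 736 and 787 RPMMM in FA, at 527, 435 and 434 RPMMM after 1 ppm O3 and at 179, 344 and 291 RPMMM after 2 ppm O3. The 3 exposures did not overlap and lay in the order of the concentration. miR-101a-3p-1 was at 772, 993 and 878 RPMMM in FA, at 1025, 944 and 994 RPMMM after 1 ppm O3 and at 405, 290 and 499 RPMMM after 2 ppm O3. FA and 1 ppm O3 overlapped at this end, and all pools at 2 ppm O3 were below both.

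In mir-101b, neither end was the higher one throughout. miR-101b-3p was at 218, 375 and 397 RPMMM in FA, at 205, 271 and 318 RPMMM after 1 ppm O3 and at 66.5, 154 and 139 RPMMM after 2 ppm O3. miR-101b-3p-1 was at 414, 198 and 254 RPMMM in FA, at 228, 169 and 253 RPMMM after 1 ppm O3 and at 186, 176 and 115 RPMMM after 2 ppm O3. The reference end was below both other groups in all pools at 2 ppm O3, while the shifted end overlapped with 1 ppm O3.

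**Figure D1:**
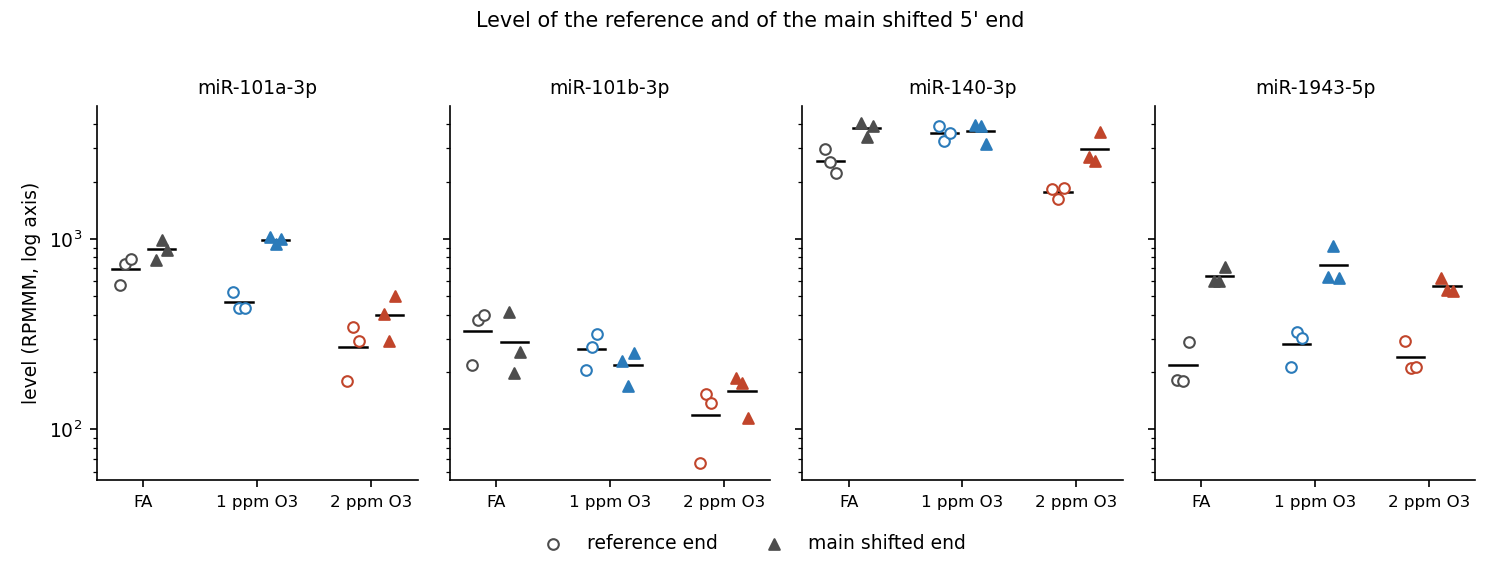
Level in RPMMM on a log axis of the reference end (open circles) and the main shifted end (filled triangles) of 4 arms in the 3 pools of each exposure, with bars at the means. miR-1943-5p+1 lay above its reference in all pools, and both miR-101a-3p ends were lowest after 2 ppm O3.

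The share of each 5′ end was then computed within its arm. The main shifted end was above the reference in 8 of 9 pools for miR-101a-3p, in 8 of 9 for miR-140-3p, in 9 of 9 for miR-1943-5p and in 4 of 9 for miR-101b-3p. For miR-101b-3p the data therefore go against a description of the hairpin as dominated by that end.

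The precision of these shares followed the reads of the arm. miR-140-3p had 1257 to 6157 reads per pool, and the 95% Wilson interval of its main shifted end, which covers counting error alone, had a half-width of 1.24 to 2.72 percentage points. miR-101a-3p had 176 to 1382 reads (2.57 to 7.15 points) and miR-1943-5p 218 to 839 reads (3.23 to 6.09 points). miR-101b-3p, with 71 to 562 reads, had the widest intervals (3.93 to 11.3 points).

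For miR-140-3p, the +1 end held 57.7 ± 4.35% of the arm in FA (SD, n = 3 pools), 48.5 ± 4.24% after 1 ppm O3 and 60.0 ± 2.32% after 2 ppm O3. The single pools were at 55.9, 54.5 and 62.6% in FA, at 49.3, 52.3 and 43.9% after 1 ppm O3 and at 58.5, 58.9 and 62.7% after 2 ppm O3. All 1 ppm O3 pools were below all others. In pool 3 at 1 ppm O3 the reference held 50.6% and was the higher end.

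For miR-1943-5p, the +1 end held 70.1 ± 2.59% in FA, 69.4 ± 4.37% after 1 ppm O3 and 69.1 ± 2.53% after 2 ppm O3 (SD, n = 3 pools each). Its lowest share was 64.4% and its highest 72.4%, both after 1 ppm O3, and the exposures overlapped fully. This was the steadiest of the 4 main shifted ends in its means.

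For miR-101a-3p, the -1 end held 53.6 ± 3.15% in FA, 66.4 ± 2.96% after 1 ppm O3 and 59.4 ± 12.2% after 2 ppm O3 (SD, n = 3 pools each). The single pools were at 55.3, 55.5 and 50.0% in FA and at 63.1, 67.4 and 68.8% after 1 ppm O3, which did not overlap. After 2 ppm O3 they were at 69.3, 45.8 and 63.1%, on both sides of FA. For miR-101b-3p the -1 end held 40.8 ± 14.3%, 43.8 ± 8.17% and 57.5 ± 14.6% in the same order, and all exposures overlapped.

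With both hairpins summed, which removes the division of shared reads, the reference end of miR-101 was at 1029 ± 209 RPMMM in FA, 730 ± 23.3 after 1 ppm O3 and 391 ± 130 after 2 ppm O3 (SD, n = 3 pools each). The -1 end was at 1169 ± 32.8, 1204 ± 79.0 and 557 ± 79.7 RPMMM. Of all 5′ ends of both arms, the -1 end held 50.1 ± 5.15% in FA and 60.5 ± 0.676% after 1 ppm O3. After 2 ppm O3 it held 59.3 ± 11.1%. Minor ends are part of that total, so this is not a share of the 2 main ends alone. The pools at 1 ppm O3, at 59.7 to 60.9%, were above the FA pools, at 45.9 to 55.8%, and those at 2 ppm O3 ranged from 48.4 to 70.6%.

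**Figure D2:**
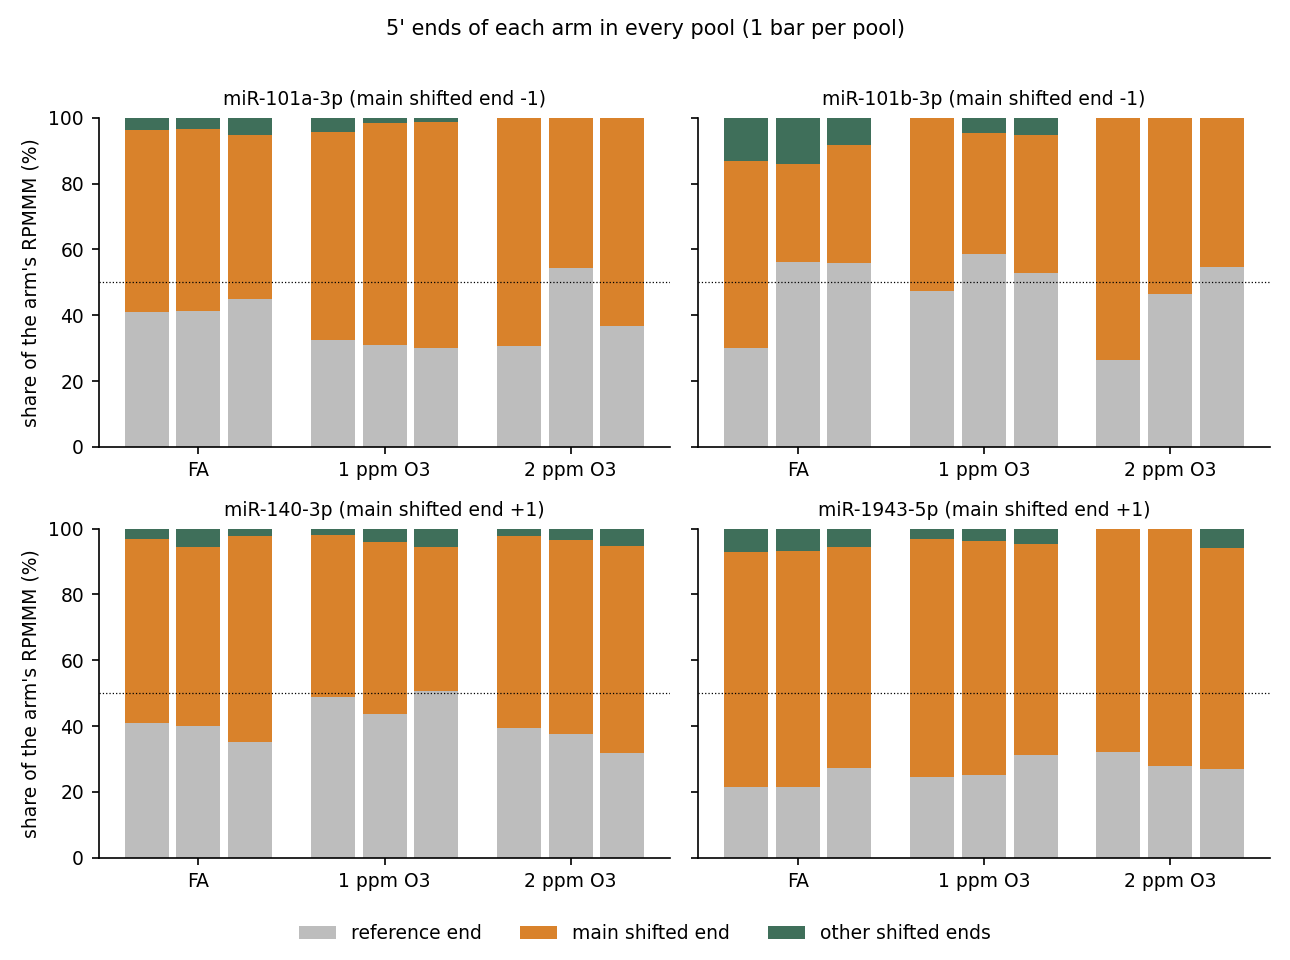
Share in percent of the RPMMM of each arm at the reference end, at the main shifted end and at other shifted ends, with 1 bar per pool in 3 exposures and a dotted line at 50%. The +1 end of miR-140-3p was lowest after 1 ppm O3, and the reference end of miR-101b-3p passed 50% in 5 of 9 pools.

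The other shifted ends were minor. In miR-101a-3p the +1, +2 and +3 ends each held at most 2.68% in any pool, and none was above 0 after 2 ppm O3. In miR-101b-3p the +3 end reached 7.83% and the +1 end 7.75%, both in FA, and in miR-1943-5p the +2 end reached 6.95%. An entry after 2 ppm O3 needed 34.3 RPMMM or more to be listed above 0, so whether such ends were present there could not be seen at this depth.

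The 4 arms were also set beside the other arms of the table. Of 229 arms that hold a reference and a shifted entry, the median share at all shifted ends was 5.20%, and 20 arms had a mean above 50%, among them these 4 and 16 others. miR-1943-5p was at rank 12 (73.6%), miR-101a-3p at rank 13 (62.0%), miR-140-3p at rank 15 (59.1%) and miR-101b-3p at rank 20 (52.4%), which was the last arm above 50%. The arms at ranks 1 to 5 were miR-5109 (95.6%), miR-5102 (94.2%), miR-324-3p (91.9%), miR-5126 (91.6%) and miR-5105 (90.9%). Of these, miR-5109, miR-5102 and miR-5105 belong to the 8 hairpins with no match in the RefSeq gene table. miR-324-3p was not listed above 0 in all pools.

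Of miRNAs known for alternative 5′ ends in other tissues, miR-142-5p had 90.0% at shifted ends (rank 6). The 2 copies of miR-133a-3p had 79.3% (ranks 10 and 11) and were listed above 0 in 4 pools. miR-142-3p (14.2%), miR-378-3p (9.97%), miR-223-3p (9.80%) and miR-375-3p (6.10%) were below all 4 arms. miR-124-3p and miR-210-3p were not among the 229 arms.

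**Figure D3:**
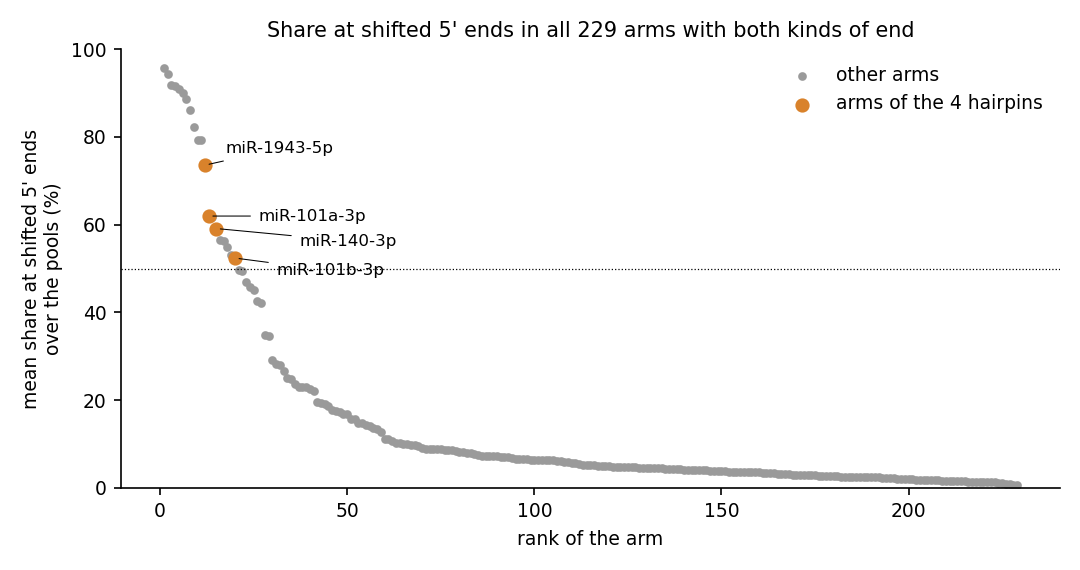
Mean share in percent at shifted 5′ ends over the pools (vertical axis) for 229 arms ranked by it (horizontal axis), with arms of the 4 hairpins in orange and a dotted line at 50%. The 4 arms lie at ranks 12, 13, 15 and 20, and the median of all arms is 5.20%.

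The hairpins were defined by their share at shifted ends and not by its difference between exposures, but they were chosen with earlier results of these data known. The tests between exposures carry that limit. The share at all shifted ends did not overlap between 1 ppm O3 and FA in 2 of the 4 arms, beside 15.3% of all 229 arms. Some other arms had no entry listed above 0 in some pools and were judged on the rest, where groups lie apart more easily. Others, such as miR-20a-5p and miR-708-3p, had a share of 0% in most pools, where groups can hardly lie apart. The 4 arms were above 0 in all pools and had high shares. The background shares, also those at 2 ppm O3, are therefore not fully alike. Of the arms ranked above all 4 and above 0 in every pool, miR-5109, miR-5126 and miR-5115 were apart between 1 ppm O3 and FA. miR-5102, miR-5105, miR-142-5p, miR-145-3p and miR-345-3p were not. In miR-101a-3p the share at all shifted ends was 57.7 ± 2.14% in FA and 68.8 ± 1.21% after 1 ppm O3. This was a difference of 11.1 percentage points (two-sided exact permutation p = 0.1, below which 3 pools against 3 cannot go). In miR-140-3p it was 61.3 ± 3.10% in FA and 52.4 ± 3.67% after 1 ppm O3, a difference of -8.92 percentage points (exact permutation test, two-sided, p = 0.1). Both had an adjusted p of 0.739 in this exact permutation test, which was the lowest of all 229 arms, and with p not below 0.1 no arm could be called in this design.

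After 2 ppm O3, none of the 4 arms (0) was apart from FA, beside 20.7% of 222 arms, and 1 was apart from 1 ppm O3, beside 13.1% of 222 arms. That arm was miR-140-3p, at 63.7 ± 3.85% after 2 ppm O3, which was 11.4 percentage points above 1 ppm O3 (exact permutation test, two-sided, p = 0.1). All pools at 1 ppm O3 thus had a lower share of miR-140-3p at shifted ends than any pool of both other groups.

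By concentration, the share of miR-1943-5p at shifted ends was higher at the higher concentration in 5 of 27 pairs of pools with unequal exposure. It was 76.6 ± 3.30% in FA, 73.1 ± 3.66% after 1 ppm O3 and 71.1 ± 2.70% after 2 ppm O3. The exact permutation p of this trend, two-sided, was 0.0738, and 0.583 after adjustment over the arms. The other arms had 16 (miR-140-3p), 17 (miR-101a-3p) and 18 (miR-101b-3p) pairs in the order of the concentration. None of the 4 trends passed the adjustment, nor did any of the 229 arms, of which the lowest adjusted p was 0.273 (exact permutation).

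The order in miR-1943-5p was not that of its main shifted end alone. The +1 end held 70.1, 69.4 and 69.1% in the means of FA, 1 ppm and 2 ppm O3, while the +3 and +6 ends were listed at 0 in all pools at 2 ppm O3 and the +2 end in 2 of 3. With entries at 0 set to the lowest value above 0 of their pool, 25.9% of pairs were in the order of the concentration, and 2 ppm O3 differed from 1 ppm O3 by 0.277 percentage points. With the ends of 50 RPMMM or less left out, 25.9% of pairs were in the order as well (exact permutation p = 0.189 in both cases), and 2 ppm O3 differed from FA by -4.48 percentage points. Over all arms, the share at shifted ends at 2 ppm O3 differed from FA by a median of -1.996 percentage points.

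The ratio of the shifted to the reference end was then fitted over 219 pairs of entries with limma, which borrows the spread of the whole table. In the comparison of 1 ppm O3 with FA 8.22% of all pairs were called, in that of 2 ppm O3 with FA 11.4%, and in that of 2 ppm with 1 ppm O3 0.00%, where 17 pairs had an unadjusted p below 0.05. Of the 5 pairs of these hairpins, none (0) was called in any comparison. The log2 ratio of miR-140-3p+1 to miR-140-3p changed by -0.55 after 1 ppm O3 (95% interval -1.03 to -0.06, adjusted p = 0.249 from limma) and by 0.15 after 2 ppm O3 (-0.33 to 0.64). Between 1 ppm and 2 ppm O3 the same ratio was higher by 0.70 (0.22 to 1.19, adjusted p = 0.301 from limma).

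For miR-101a-3p-1 the log2 ratio was higher by 0.74 after 1 ppm O3 than in FA, with an interval from -0.24 to 1.72 (adjusted p = 0.578 from limma). For miR-1943-5p+1 it differed by -0.20 (-1.14 to 0.74) after 1 ppm O3 and by -0.32 (-1.26 to 0.62) after 2 ppm O3. The widest intervals were those of miR-101b-3p-1, at -1.50 to 1.37 after 1 ppm O3 and -0.79 to 2.08 after 2 ppm O3. A change of 2-fold, or 1 on the log2 scale, lies inside the interval for miR-1943-5p+1 and both miR-101 ends in each comparison with FA, and outside it for miR-140-3p+1 after 2 ppm O3.

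**Figure D4:**
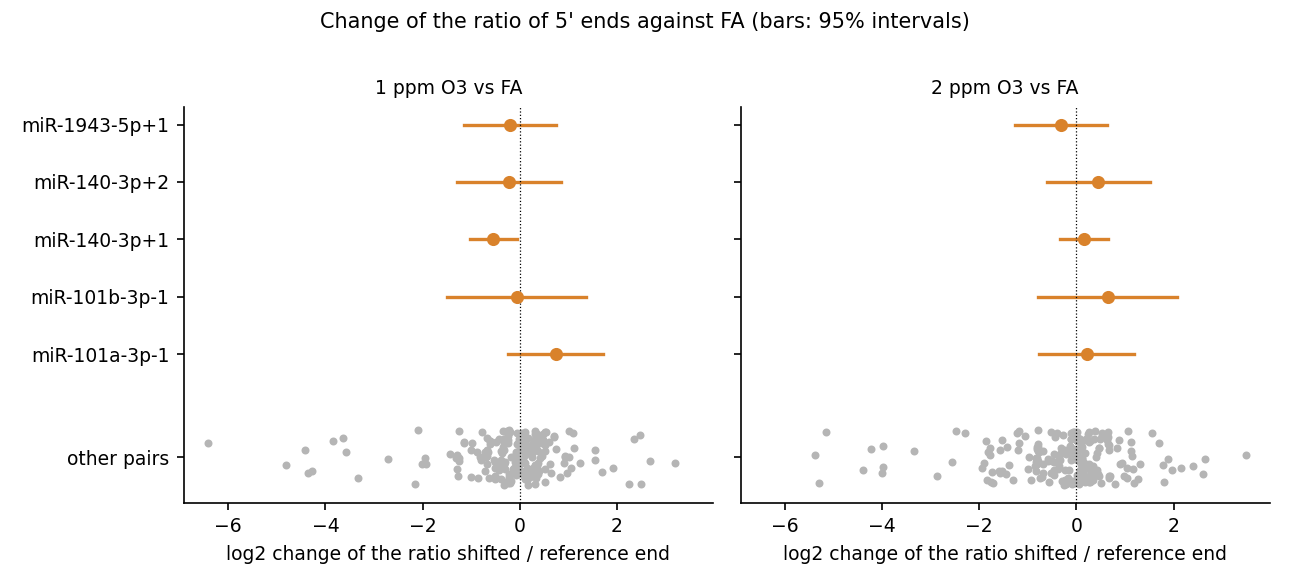
Log2 change against FA of the ratio of shifted to reference end (horizontal axis) for the 5 pairs of the 4 hairpins with 95% intervals (orange), above the other pairs of the table (grey, spread vertically for display). All 5 intervals cover 0 after 2 ppm O3, and that of miR-140-3p+1 lies below 0 after 1 ppm O3 with an adjusted p of 0.249 from limma.

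Levels were compared over 461 entries with limma, and an entry was called differentially expressed (DE) where it changed by 2-fold or more with an adjusted p under 0.05. After 1 ppm O3, none of the 10 entries (0) was DE, beside 13.2% of all entries. The reference end miR-140-3p had a log2 fold change of 0.49 (SE 0.138, adjusted p = 0.0372 from limma), which was under 2-fold, while miR-140-3p+1 was at -0.06 (SE 0.159). The reference end miR-101a-3p was at -0.58 (SE 0.271, adjusted p = 0.211 from limma) and miR-101a-3p-1 at 0.17 (SE 0.215).

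After 2 ppm O3, 3 of the 10 entries were DE against FA, all lower, beside 43.6% of all entries DE and 29.3% DE and lower. All 3 were miR-101 ends. miR-101a-3p had a log2 fold change of -1.40 (SE 0.271, adjusted p = 0.00183 from limma), which is 0.379 times FA. miR-101a-3p-1 was at -1.17 (SE 0.215, adjusted p = 0.00134 from limma), and miR-101b-3p at -1.50 (SE 0.409, adjusted p = 0.0118 from limma). miR-101b-3p-1 was at -0.82 (SE 0.367, adjusted p = 0.0858 from limma). Without pool 2 at 2 ppm O3, miR-101a-3p-1 was at -0.96 and no longer reached 2-fold.

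The entries of mir-140 and mir-1943 were not DE in that comparison. miR-140-3p was at -0.53 (SE 0.138, adjusted p = 0.00956 from limma), under 2-fold, miR-140-3p+1 at -0.37 (SE 0.159) and miR-140-3p+2 at -0.08 (SE 0.479). miR-1943-5p was at 0.16 (SE 0.314) and miR-1943-5p+1 at -0.17 (SE 0.199). miR-1943-3p was at -2.94 with an SE of 1.47, and ranged from -4.26, without pool 1 at 2 ppm O3 and then DE, to -0.89, without the pool listed at 0.

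Between 2 ppm and 1 ppm O3, 3 of the 10 entries were DE, all lower, beside 33.6% of all entries DE and 22.3% DE and lower. These were miR-101a-3p-1 at -1.34 (SE 0.215, adjusted p = 0.000858 from limma), miR-101b-3p at -1.21 (SE 0.409, adjusted p = 0.0395 from limma) and miR-140-3p at -1.02 (SE 0.138, adjusted p = 0.000353 from limma). miR-140-3p+1 was at -0.32 (SE 0.159, adjusted p = 0.129 from limma) in the same comparison. The call of miR-101b-3p was lost when any of 7 of the 9 pools was left out, all but FA pool 1 and pool 2 at 2 ppm O3, with log2 fold changes of -0.83 to -1.43 over all omissions. miR-140-3p was at -0.96 and -0.97 without pool 1 at 1 ppm O3 and without pool 2 at 2 ppm O3, both short of 2-fold. miR-101a-3p, at -0.82 with all pools, was DE at -1.02 without pool 2 at 2 ppm O3, and miR-1943-3p at -4.40 without pool 1 at 2 ppm O3. Without pool 1 at 1 ppm O3, 1 entry was DE. With the pools scaled by a median of ratios, 0 of the 10 entries were DE, beside 17.9% of all entries, of which 75 were higher and 7 lower in place of 52 and 103 in the deposited values. With a total that left out miR-2137 and the unmatched hairpins, 0 of 10 were DE, beside 11.4% of all entries.

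Summed over their 5′ ends, 253 arms were tested. Against FA, none of the 5 arms of these hairpins (0) was DE after 1 ppm O3, beside 6.32% of all arms, and 2 were DE after 2 ppm O3, both lower, beside 43.5% DE and 37.9% DE and lower. The miR-101a-3p arm fell from 1647 ± 218 RPMMM in FA to 670 ± 107 RPMMM after 2 ppm O3 (log2 fold change -1.30, SE 0.171, adjusted p = 0.000123 from limma). The miR-101b-3p arm fell from 702 ± 31.3 to 279 ± 44.3 RPMMM (log2 fold change -1.34, SE 0.225, adjusted p = 0.000557 from limma). The miR-140-3p arm was at 6615 ± 562 and 4925 ± 773 RPMMM (-0.43, SE 0.126) and the miR-1943-5p arm at 914 ± 129 and 821 ± 83.1 RPMMM (-0.15, SE 0.196). Between 2 ppm and 1 ppm O3, the miR-101a-3p arm was DE (-1.16, SE 0.171), which was 1 of the 5 arms beside 29.6% of all arms DE and 24.5% DE and lower.

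These level changes moved with the scaling of the pools. Over all entries, the log2 fold change after 2 ppm O3 had a median of -0.83 in the deposited values. It had a median of -0.09 with each pool scaled by a median of ratios, and of -0.07 with a reduced total that left out miR-2137 and the unmatched hairpins. Relative to the median of -0.83, miR-101a-3p was at -0.57, miR-101a-3p-1 at -0.35, miR-101b-3p at -0.67 and miR-101b-3p-1 at 0.0095. The other ends were above the median except miR-1943-3p, with miR-140-3p at 0.30, miR-140-3p+1 at 0.45 and miR-1943-5p+1 at 0.65. As arm sums, miR-101a-3p was at -0.25 and miR-101b-3p at -0.29 relative to the median of all arms.

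The arms of mir-101a and mir-101b had negative log2 fold changes after 2 ppm O3 under each of the 3 scalings, and those of miR-140-3p and miR-1943-5p turned from negative to positive. That of miR-1943-3p was also negative under all 3, at -2.94, -2.41 and -2.39. Its SE was 1.45 to 1.61, and it was listed at 0 in 1 pool at 2 ppm O3. The miR-101a-3p arm was at -0.60 and -0.44 under the median ratio and under the reduced total, and the miR-101b-3p arm at -0.64 and -0.48, while the median of all arms was at -0.33 and -0.19. None of the 5 arms (0) was DE there, beside 17.5% and 16.2% of all arms, and the adjusted p from limma of the miR-101 arms ranged from 0.0135 to 0.134. The miR-140-3p arm was at 0.26 and 0.43, and the miR-1943-5p arm at 0.55 and 0.71. Of the entries, 0 of 10 were DE under the median ratio, beside 26.4% of all entries, in place of 3 in the deposited values. Under the reduced total 1 of 10 was DE, beside 15.8% of all entries, which was miR-1943-5p and was higher, at 1.02.

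**Figure D5:**
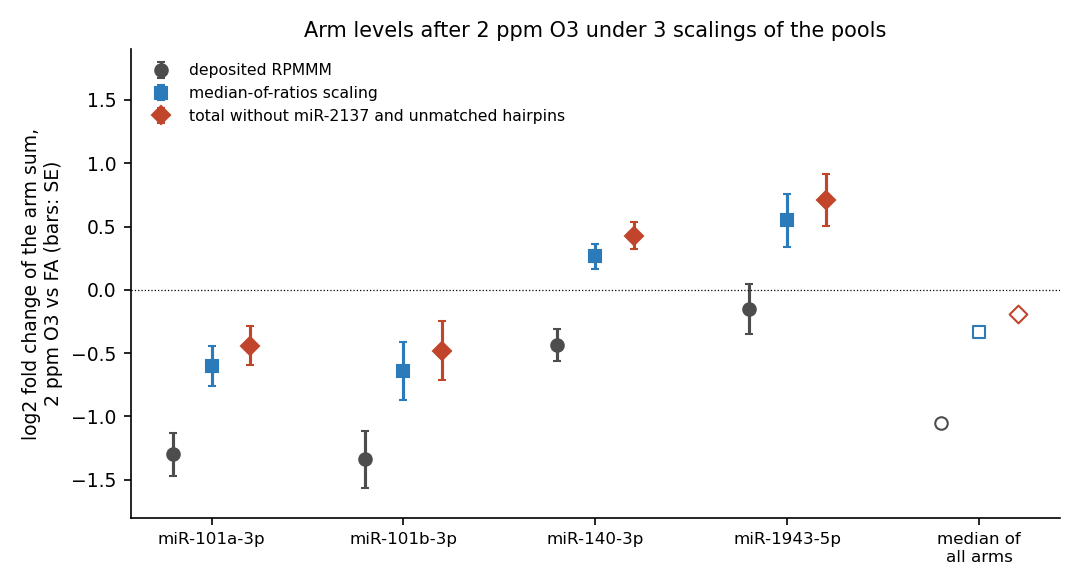
Log2 fold change of the arm sums between 2 ppm O3 and FA with SE under the deposited scaling (grey circles), the median ratio (blue squares) and the total without miR-2137 and the unmatched hairpins (red diamonds), with the median of all arms at the right (open symbols). The miR-101 arms lie below 0 under all 3, as does the median of all arms, while miR-140-3p and miR-1943-5p lie below 0 in the deposited values only. miR-1943-3p, also below 0 under all 3, is not shown.

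The levels of the ends were compared with each other over the 9 pools, as a description, since pools of 1 exposure share their exposure and all share a total. Pearson's r of log2 levels was 0.919 between the reference ends of miR-101a-3p and miR-101b-3p, which share reads, 0.718 between both ends of miR-101a-3p, 0.662 between both ends of miR-1943-5p and 0.592 between both ends of miR-140-3p. The entries of other hairpins most like miR-101a-3p-1 were miR-151-3p (0.974), miR-23b-3p (0.971) and miR-21-5p+3 (0.965). Those most like miR-140-3p+1 were let-7d-5p+2 (0.919), miR-30e-3p-1 (0.915) and let-7f-2-5p+2 (0.901). Those most like miR-1943-5p+1 were miR-27a-3p (0.839), miR-152-3p (0.838) and miR-26a-2-5p-1 (0.776). For miR-101b-3p, the highest end of its hairpin by mean, they were miR-322-3p-2 (0.929) and the +1 ends of the 2 copies of miR-30c-5p (both 0.920).

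Markers of cell types that could release EVs into the airway are given in the deposited scaling, with no test. In this scaling the median log2 fold change of all arms after 2 ppm O3 was -1.05 against FA. Lower sums there are thus not particular to a marker list. The summed level of 8 of 8 epithelial hairpins was 76486 to 85983 RPMMM in FA, 57361 to 62318 RPMMM after 1 ppm O3 and 38618 to 42303 RPMMM after 2 ppm O3. The 4 of 4 leukocyte hairpins summed to 2319 to 3516, 2688 to 3356 and 1654 to 2000 RPMMM, and the endothelial mir-126 to 112 to 314, 445 to 938 and 764 to 912 RPMMM. The 3 of 3 erythroid hairpins summed to 884 to 1822, 150 to 343 and 158 to 948 RPMMM, and the 4 of 4 mesenchymal hairpins to 5957 to 13834, 7009 to 10313 and 6336 to 6464 RPMMM. The epithelial sums did not overlap between the 3 exposures, while the leukocyte sums at 1 ppm O3 and the mesenchymal sums at both concentrations lay within the range of FA. Their part in the levels of the miR-101 ends and of miR-140-3p was not tested.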

How the data were processed

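Small RNA from EVs of BALF was measured in 9 pools, 3 per exposure, grouped by the exposure in the labels, with pools numbered in accession order. The authors trimmed adapters, aligned reads to mm9 and counted miRNAs and isomiRs with miRquant 2.0. The deposited values are RPMMM, that is RPM with miRNA reads as the total. No value column was left unmapped (0). Reads were estimated from the steps between low values, of which 66.1 to 83.2% lay on whole reads in each pool, so no count test was used.

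From these values, log2(RPMMM + 1) of entries and arm sums with a mean above 50 RPMMM, and log2 ratios of 5′ ends with 10 RPMMM added to each, were fitted in all 9 pools with limma 3.58.1 in R 4.3.3 and a variance trend. Benjamini-Hochberg adjustment was over all features fitted. The fits of entries and of ratios, not that of arm sums, were run on simulated data. There features were shifted by more than 2-fold and scored by adjusted p alone, without the 2-fold limit. These fits did not recover all changed features. An entry that was not called may therefore still have changed. Shares were compared by two-sided exact permutation tests. Wilson intervals are at 95% and cover counting error only, since reads are not independent molecules. Other steps used matplotlib 3.10.9, pandas 2.3.3, scipy 1.17.1 and numpy 2.4.6 in Python 3.11.15.

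The hairpins and all lists were chosen with earlier results of these data known. Named are all entries of the 4 hairpins, for the highest entry of each the 3 entries of other hairpins with the highest correlation, the 5 other arms with the largest share at shifted ends, entries that share a seed, and a list of miRNAs known for alternative 5′ ends. Alternatives changed the pseudocount, filter, scaling, trend, pools fitted, treatment of zeros and summing of ends. The reduced total for arm sums was added after seeing the data. Positions and genes are from the mm9 annotation of GENCODE M1. A mature sequence of RefSeq was found for 349 of 427 reference entries. None was found for miR-140-5p, so none is shown.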

Additional observations from a re-analysis of the deposited data

How the results depend on the processing

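With median-of-ratios scaling, 0 of 10 entries were DE at 2 ppm O3 against FA and 0 of 10 against 1 ppm O3, beside 26.4% and 17.9% of all entries, and 0 and 0 of 5 arms, beside 17.5% and 13.1% of all arms. With the total without miR-2137 and the unmatched hairpins, which was chosen after seeing the data for arms, these were 1 and 0 entries, beside 15.8% and 11.4%, and 0 and 0 arms, beside 16.2% and 12.0%. Under these 2 scalings in turn, signs reversed at 2 ppm O3 against FA for miR-140-3p (0.17, 0.33), miR-140-3p+1 (0.32, 0.49), miR-140-3p+2 (0.61, 0.78), miR-1943-5p+1 (0.53, 0.69), miR-101b-3p-1 (0.041, second only) and the arms miR-140-3p (0.26, 0.43) and miR-1943-5p (0.55, 0.71). At 2 ppm against 1 ppm O3 they reversed for miR-101b-3p-1 (0.16, 0.29), miR-140-3p+1 (0.30, 0.43), miR-140-3p+2 (0.24, 0.38), miR-1943-5p (0.39, 0.52), miR-1943-5p+1 (0.28, 0.41) and the arms miR-1943-5p (0.28, 0.41) and miR-140-3p (0.12, second only). miR-140-3p+1 at 1 ppm O3 against FA was at 0.028 and 0.057.

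With no filter, 6 of 24 entries were DE at 2 ppm O3 against FA, beside 19.1% of all 1308. With the reference end alone, the arm miR-1943-5p was at 0.16 against FA, and 2 of 5 arms were DE at 2 ppm against 1 ppm O3, beside 30.1%. Pairs called in the ratio fit were 10, 13 and 2 with a pseudocount of 1, in the order 1 ppm O3 and 2 ppm O3 against FA and 2 ppm against 1 ppm O3, and 32 in the first with values below 40 RPMMM set to 40. With entries at 0 set to the lowest value, the shifted share of miR-1943-5p differed by 0.277 percentage points between 2 ppm and 1 ppm O3. With both miR-101 hairpins summed, the share differed by 6.74 (1 ppm O3 against FA) and -3.96 points (2 ppm against 1 ppm O3), both reversed for miR-101b-3p. The cause of these changes was not tested.

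Each pool was left out in turn. DE entries ranged from 2 to 4 at 2 ppm O3 against FA and from 1 to 3 against 1 ppm O3, and DE arms from 2 to 3 and from 1 to 2. Pairs called in the ratio fit ranged from 12 to 18, 15 to 25 and 0 to 1. Without pool 1 at 1 ppm O3 the 3 entries between 2 ppm and 1 ppm O3 became 1, without pool 1 at 2 ppm O3 2 arms were DE there and 1 pair was called, and without FA pool 3 the 25 pairs became 15. The shifted share of miR-101a-3p at 2 ppm O3 against FA ranged from -3.23 to 8.54 points and reversed without pool 1 (-3.23) or pool 3 (-0.14) at 2 ppm O3. That of miR-101b-3p ranged from -3.17, without pool 1, to 13.6 points, and at 1 ppm O3 against FA from -9.94 to 3.17 points, the latter without FA pool 1. Pairs in the order of the concentration ranged from 9.52 to 23.8% for miR-1943-5p, with the lowest and an exact permutation p of 0.0286 without FA pool 3, and from 47.6%, without pool 3 at 2 ppm O3, to 71.4% for miR-140-3p. Log2 levels at 1 ppm O3 against FA ranged from -0.019 to 0.26 for miR-1943-5p+1, from -0.13 to 0.053 for miR-140-3p+1, from -0.054 to 0.64 for miR-140-3p+2 and from -0.13 to 0.45 for miR-1943-3p, also as an arm. miR-140-3p+2 ranged from -0.43 to 0.28 at 2 ppm O3 against FA. Log2 ratios against FA ranged from -0.41 to 0.48 for miR-101b-3p-1 and from -0.44 to 0.12 for miR-140-3p+2 at 1 ppm O3 and from -0.076 to 0.61 for miR-101a-3p-1 at 2 ppm O3. No paired analysis was possible because the labels give the pools no shared numbers. Of the values recomputed, 1106 were classed as unchanged, 51 reversed, 31 lost a threshold they had passed, 10 passed one and 18 counts moved. Fits and trends were unchanged if they kept their direction and their side of the threshold. Differences of shares were judged by direction alone, and counts by a similar size. Depth limits minor ends most after 2 ppm O3, where no value above 0 lay below 34.3 RPMMM.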
